A study of Mus musculus with 6 samples.

Results

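Kinesins are the motor proteins that walk along, or take apart, microtubules. The genes described here are the 35 protein-coding mouse genes whose symbol is Kif followed by a digit and that had 10 or more counts in at least 3 of 6 libraries, out of 38087 gene IDs in the deposited counts. Their mRNA was counted in HL-1 cells transfected with an siRNA against Circ-INSR, a circular RNA made from the insulin receptor gene, at 100 nM (3 libraries), or with a scrambled control siRNA (3 libraries). HL-1 is a mouse atrial cardiomyocyte line that keeps dividing in culture because it carries the large T antigen of a simian virus, so both groups consist of cycling cells of an immortalised line. The labels do not say whether the 3 libraries of a group came from separate cultures, and p-values therefore measure the spread between these libraries, which may be technical. The RNA was selected by its poly(A) tail, which favours linear mRNA, so the knockdown of the circular RNA itself was not measured.

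A kinesin binds microtubules and splits ATP with a motor domain of shared fold, while the rest of the protein decides what it carries or where it acts. One branch of the family builds the mitotic spindle, moves chromosomes and organises the midzone at which the cell divides, and the genes of that branch are switched on late in the cell cycle. Another branch carries vesicles, lysosomes, mitochondria and mRNA towards the plus end of microtubules in interphase, and further members serve the cilium, an antenna for Hedgehog signals. Cardiomyocytes of the adult heart rarely divide, whereas HL-1 cells do, and mitotic kinesins are therefore measurable here together with transport kinesins.

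Promoters of genes expressed in G2 and mitosis commonly hold a cell cycle homology region (CHR), at which the DREAM complex and its MuvB core bind, and a CCAAT box, the site of the factor NF-Y. RefSeq promoter windows, from 250 bases before to 50 bases after the transcript start on GRCm38.p6, were matched for 27 of the 35 genes and searched on both strands for the CHR words TTTGAA and TTCGAA and for CCAAT. No CHR match shared bases with a CCAAT match in these genes. Of 10 mitotic kinesin genes with a window, 9 held a CHR word and 6 held CCAAT. A CHR word was found in 4 of the 17 other kinesin genes with a window, and in 20.2% of 17492 protein-coding genes. CCAAT was found in 7 of those 17 genes and in 42.3% of protein-coding genes. When only the 30 bases on either side of the start were counted, a limit chosen after the positions were seen, 7 of the 10 mitotic genes and 2 of the 17 others held a CHR word, against 3.3% of protein-coding genes. Stretches from 60 bases before to 30 bases after the start are shown for 7 mitotic genes with a CHR word there and for Kif18a, whose window has none. Kif2c and Kif14, whose CHR words lie farther from the start, are not shown. Capitals mark CHR and CCAAT words, in either orientation.
Kif11, chr19:37376322-37376411, plus strand: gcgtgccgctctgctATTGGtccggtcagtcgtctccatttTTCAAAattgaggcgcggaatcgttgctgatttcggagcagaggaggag
Kif15, chr9:122951021-122951110, plus strand: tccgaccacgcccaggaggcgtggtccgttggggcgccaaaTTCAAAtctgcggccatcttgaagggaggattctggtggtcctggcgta
Kif22, chr7:127042391-127042480, minus strand: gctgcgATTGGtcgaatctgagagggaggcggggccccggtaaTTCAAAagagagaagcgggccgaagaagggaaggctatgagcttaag
Kif4, chrX:100626005-100626094, plus strand: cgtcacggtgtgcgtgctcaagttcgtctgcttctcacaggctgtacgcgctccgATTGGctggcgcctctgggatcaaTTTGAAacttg
Kif20b, chr19:34922298-34922387, plus strand: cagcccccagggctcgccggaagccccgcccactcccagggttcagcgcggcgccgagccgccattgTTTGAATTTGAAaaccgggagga
Kif23, chr9:61946770-61946859, minus strand: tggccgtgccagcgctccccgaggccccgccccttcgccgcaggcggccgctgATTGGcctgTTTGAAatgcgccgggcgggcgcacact
Kif18b, chr11:102925095-102925184, minus strand: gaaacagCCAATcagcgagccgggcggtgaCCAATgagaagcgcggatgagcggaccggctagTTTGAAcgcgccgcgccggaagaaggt
Kif18a, chr2:109280678-109280767, plus strand: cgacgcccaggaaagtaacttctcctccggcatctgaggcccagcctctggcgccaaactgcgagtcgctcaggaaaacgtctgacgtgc

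**Figure D1:**
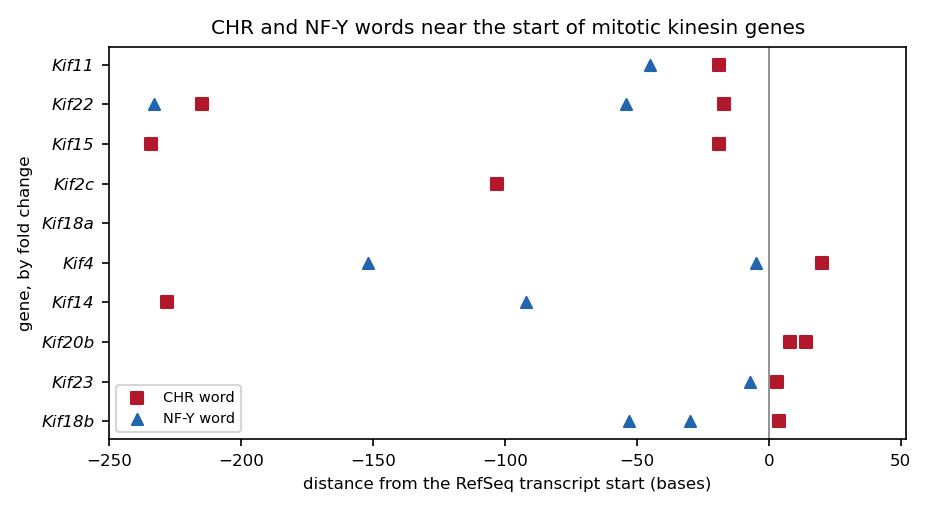
Position of CHR words (squares) and of the CCAAT word bound by NF-Y (triangles) in the promoter windows of 10 mitotic kinesin genes, in bases from the RefSeq transcript start, with genes ordered by fold change from the highest at the top. In Kif11, Kif22 and Kif15 a CHR word lies 19, 17 and 19 bases before the start, and Kif18a has no word of either kind. Kif20a had no matched window.

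In Kif11, Kif22 and Kif15 the CHR word is the reverse complement, TTCAAA, and begins 19, 17 and 19 bases before the start. In Kif23, Kif18b, Kif20b and Kif4 it reads TTTGAA and begins 3, 4, 8 and 20 bases into the transcript. Kif20b holds it again directly behind the first copy, at base 14. Such a match describes letters only, and binding was not measured.

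Sequencing depth was 68468620 to 77037474 counts in Circ-INSR siRNA libraries and 60024750 to 62523602 in control libraries. Of 10 atrial cardiomyocyte markers all were measured, with Myh6 at 2205 ± 41.3 and 1564 ± 131 CPM (counts scaled to library size with TMM factors; SD, n = 3 each) in Circ-INSR siRNA and control libraries, while Nppa, which encodes atrial natriuretic peptide, was low at 16.4 ± 0.925 and 16.6 ± 0.357 CPM. This list had 4 higher and 4 lower genes. Its sums were 6159 to 6243 CPM after Circ-INSR siRNA, against 6169.5 to 6497 CPM in control. Myh6 was among the higher genes, as was Myl4 (log2 fold change 0.86, SE 0.047; edgeR adjusted p = 4.56e-08). Tnnt2 fell by 0.733 (SE 0.038; edgeR adjusted p = 2.72e-08) and Actn2 by 0.645 (SE 0.045; edgeR adjusted p = 2.9e-07). Marker lists of other cells differed in direction. Called fibroblast genes were mixed, called endothelial and smooth muscle genes were all higher, and called leukocyte genes were all lower. Of 5 endothelial markers Kdr and Tek rose, at 71.7 ± 2.49 and 24.2 ± 1.46 CPM for Kdr, and the list summed to 82.5 to 86.3 CPM after Circ-INSR siRNA, against 27.1 to 30.6 CPM in control, while Cdh5 was near 0 and Emcn at 0. Of 6 fibroblast markers Col3a1 and Col1a2 rose and Col1a1 fell, with sums of 132.6 to 149.6 CPM against 171.9 to 189.8 CPM in control, and Dcn and Lum were near 0. Of 5 leukocyte markers Cd68 and Cd3e fell, with sums of 3.26 to 3.67 CPM against 5.29 to 5.95 CPM in control, while Ptprc was near 0 and Adgre1 at 0. Markers of smooth muscle, some of which cultured cardiomyocytes also express, summed to 6426 to 6659 CPM after Circ-INSR siRNA, against 3992 to 4114 CPM in control, with 4 of 4 higher. The part of these lists in the results on kinesins was not tested. One control library, replicate 3, differed from its group. The 10% of genes with the longest exons had a median log2 deviation of -0.133 in it, against 0.030 and 0.037 in control replicates 1 and 2. This bears on kinesins, whose median exonic length is 6990 bases against 3778 bases for all genes tested. In control replicate 3 the mean of the other controls was undercut by 0.60 (log2) for Kif26b, 0.55 for Kif13b and 0.30 for Kif1b, which have the longest exons of the family at 14696, 13017 and 17608 bases. Kif15, with 11020 bases, was level there, at 23.9 CPM against 23.99 CPM, and Kif17, with only 4582 bases, was lower by 0.61.

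Expressed per kilobase of exon, so that genes can be compared, Kif5b was the most abundant kinesin mRNA in both groups, at 54.5 ± 0.695 and 50.3 ± 2.45 CPM per kb in Circ-INSR siRNA and control libraries (SD, n = 3 each). It encodes the ubiquitous heavy chain of conventional kinesin, a carrier of mitochondria and lysosomes. In Circ-INSR siRNA libraries it was followed by Kif11 (40.8), Kif20a (38.9), Kif4 (36.0), Kif1c (33.8) and Kif18b (25.2 CPM per kb). In control libraries Kif1c came next at 37.4 CPM per kb, then Kif20a (30.5), Kif4 (30.2), Kif18b (27.6) and Kif11 (25.8 CPM per kb). Neighbours in that control order from Kif20a to Kif11 overlapped in their libraries, so their ranks there are not distinct. Kif11 was second after Circ-INSR siRNA and sixth in control, where its libraries lay between 24.9 and 26.3 CPM per kb, against 39.6 to 41.6 CPM per kb after Circ-INSR siRNA. Kif20a reached 39.7 CPM per kb after Circ-INSR siRNA, so it overlapped Kif11 and their order there is not distinct. The 11 mitotic genes made up 53.0%, 53.2% and 54.0% of the summed level per kb of the 35 genes in the Circ-INSR siRNA libraries, and 47.2%, 47.9% and 48.7% in the control libraries. These shares do not overlap. At the low end stood Kif21b, Kif19a and Kif5c, all under 0.15 CPM per kb in the mean of each group. The 4 Kif genes left out by the count minimum (Kif12, Kif21a, Kif26a and Kif2b) had at most 4 counts in any library.

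**Figure D2:**
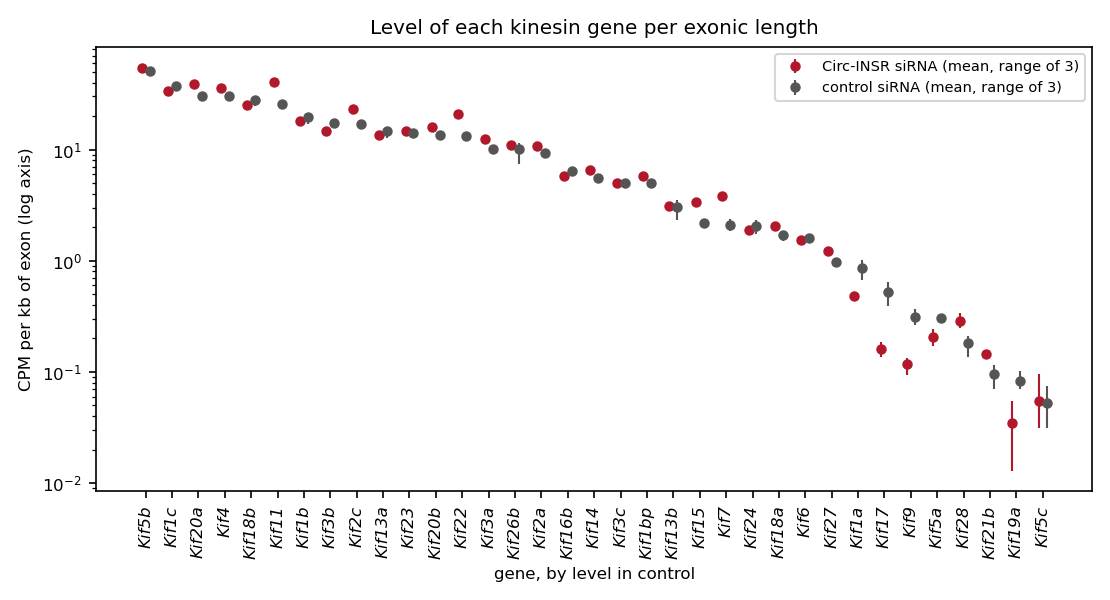
Level of each of the 35 genes in CPM per kilobase of exon, on a log axis, as the mean of 3 libraries (points) with their range (bars), for Circ-INSR siRNA on the left of each pair and control siRNA on the right. Kif5b is highest in both groups, and Kif11 stands at 40.8 against 25.8 CPM per kb.

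The comparison asks how mRNA levels differ when Circ-INSR is targeted. Of the 35 kinesin genes, all of which were tested, the Circ-INSR siRNA libraries had 17 higher and 8 lower at an adjusted p under 0.05 (quasi-likelihood test of edgeR, adjusted over 16666 genes after Benjamini and Hochberg). Among all genes tested 28.5% were called higher and 28.5% lower, together 57.0%, so a call in itself is common in this experiment. The median log2 fold change was 0.12 over the kinesins and -0.005 over all genes tested. The libraries of both groups did not overlap for the same 25 genes that were called, and for 63.3% of all genes tested. Most changes were small, and 11 of the 25 reached an absolute log2 fold change of 0.5. Of the 11 mitotic genes 9 were higher and 0 lower (0 lower also at an unadjusted p under 0.05 and in DESeq2), with a median of 0.29, whereas of the 24 other genes 8 were higher and 8 lower, with a median of -0.04. Without control replicate 3 the count of lower kinesins was 13 instead of 8, among them the mitotic gene Kif18b, and the count of higher kinesins remained 17.

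**Figure D3:**
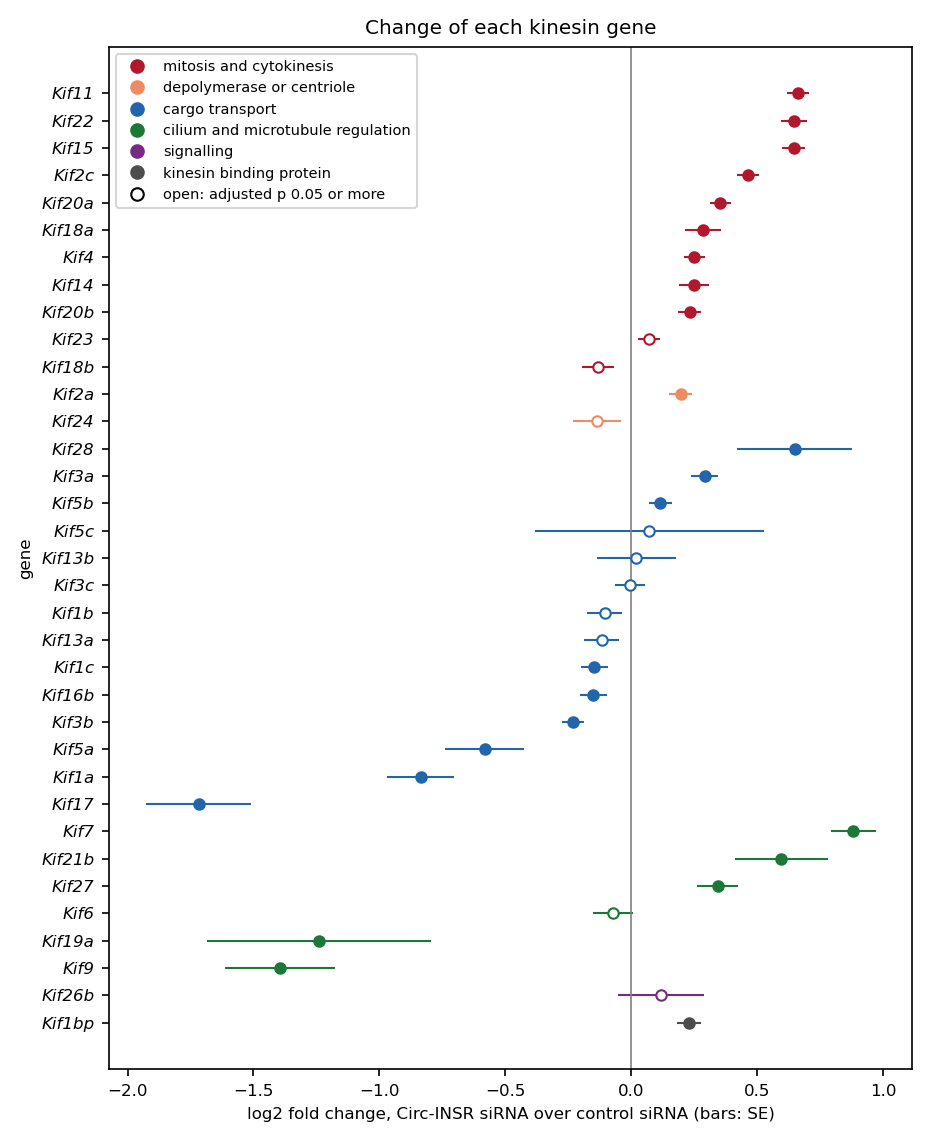
Log2 fold change of each kinesin gene, Circ-INSR siRNA over control siRNA, with its standard error (bars), grouped by role. Filled points have an edgeR adjusted p under 0.05. All filled points of the mitotic group lie to the right of 0, and the largest fall is that of Kif17 at -1.72.

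The largest rises among mitotic motors were those of Kif11, Kif22 and Kif15. Kif11 (Eg5, chr19:37376403-37421859, plus strand) encodes the motor that slides antiparallel microtubules apart to make the spindle bipolar. It had 295, 311 and 308 CPM after Circ-INSR siRNA, against 186, 196 and 195 CPM in control, a log2 fold change of 0.66 (SE 0.04; edgeR adjusted p = 1.63e-07). Every Circ-INSR siRNA library was well above the highest control. Kif15 (chr9:122951046-123018733, plus strand) encodes a spindle motor that can stand in for Kif11. Its mRNA was at 38.0, 38.0 and 36.5 CPM, against 24.0, 24.0 and 23.9 CPM in control (log2 fold change 0.65, SE 0.05; edgeR adjusted p = 3.99e-07). The controls were nearly identical. The ratio of Kif11 to Kif15, per kb, was 12.02 ± 0.501 after Circ-INSR siRNA and 11.9 ± 0.358 in control (SD, n = 3 each), and the ratios overlapped. This pair was chosen after its values were seen.

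Kif22 (Kid, chr7:127027729-127042471, minus strand) encodes a chromokinesin that binds DNA and pushes chromosome arms towards the spindle equator. It had 101.4, 95.7 and 108.0 CPM after Circ-INSR siRNA, against 64.9, 63.8 and 66.2 CPM in control (log2 fold change 0.65, SE 0.05; edgeR adjusted p = 7.35e-07). No library of one group came near the other. Kif4, the second chromokinesin, which works with Prc1 in the spindle midzone, rose less, with 198, 200.4 and 196 CPM against 169, 171 and 160 CPM in control (log2 fold change 0.25, SE 0.04; edgeR adjusted p = 0.000383). Its groups were separate although the difference was small. Of the exons of Kif4, 15.1% overlap Pdzd11 on the other strand, and the strand setting of the counting is not given in the sources used here. Pdzd11 had a log2 fold change of 0.01 (edgeR adjusted p = 0.924).

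Kif2c (MCAK, chr4:117159639-117182639, minus strand) encodes the depolymerase that frees wrongly attached microtubules from kinetochores. It stood at 98.0, 100.3 and 105 CPM after Circ-INSR siRNA, against 73.0, 73.9 and 72.8 CPM in control (log2 fold change 0.46, SE 0.04; edgeR adjusted p = 2.98e-06). The lowest treated library was well above the highest control. Its relative Kif2a, a depolymerase of interphase cells and spindle poles, rose by 0.20 (SE 0.05; edgeR adjusted p = 0.00336), with 68.4 ± 1.71 and 59.7 ± 2.40 CPM (SD, n = 3 each). Kif2a shares 19.2% of its exons with Dimt1 on the other strand, and Dimt1 rose by 0.51 (edgeR adjusted p = 2.19e-05). Kif24, which trims centriolar microtubules and restrains cilium growth, was at 15.03 ± 0.924 and 16.5 ± 2.35 CPM and did not pass the test (edgeR adjusted p = 0.242). Without control replicate 3 its log2 fold change was -0.24, at an edgeR adjusted p of 0.0058.

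The kinesin-6 motors act at the midzone and midbody, where the daughter cells separate. Kif20a (MKLP2, chromosome 18) brings the chromosomal passenger complex to the midzone and had 164, 171 and 172 CPM after Circ-INSR siRNA, against 133, 131 and 133 CPM in control (log2 fold change 0.35, SE 0.04; edgeR adjusted p = 1.87e-05). The treated libraries were all higher. Of its exons 29.3% overlap Cdc23 on the other strand, which was at 84.4 and 79.1 CPM (edgeR adjusted p = 0.114). Kif20b, which acts late in cytokinesis, rose by 0.23 (SE 0.05; edgeR adjusted p = 0.00093), with 110.0 ± 1.98 and 93.6 ± 3.83 CPM (SD, n = 3 each). Kif23 (MKLP1), the motor subunit of the centralspindlin complex, was at 116 ± 4.74 and 111 ± 1.84 CPM, a log2 fold change of 0.07 (SE 0.05; edgeR adjusted p = 0.202), and its groups overlapped. The ratio of Kif20a to Kif23 per kb was 2.67, 2.68 and 2.59 after Circ-INSR siRNA, against 2.21, 2.12 and 2.20 in control, as a description of a pair chosen after its values were seen.

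Of the mitotic kinesin-8 motors, which act at the plus ends of microtubules, Kif18a rose and Kif18b was not called. Kif18a, which damps chromosome oscillations in metaphase, rose by 0.29 (SE 0.07; edgeR adjusted p = 0.00502), with 20.3 ± 0.3004 and 16.6 ± 1.63 CPM (SD, n = 3 each). Kif18b, which acts on astral microtubules, had 91.2, 88.2 and 90.8 CPM after Circ-INSR siRNA, against 108, 99.6 and 88.7 CPM in control (log2 fold change -0.13, SE 0.06; edgeR adjusted p = 0.0936). Control replicate 3 lay within the treated libraries and the other controls above them. Without that library the log2 fold change was -0.20 (edgeR adjusted p = 0.000485), with total counts as the scaling it was -0.18 (edgeR adjusted p = 0.0229), without control replicate 1 it was -0.06 (edgeR adjusted p = 0.33), and after removal of a length and GC trend it was -0.004 (edgeR adjusted p = 0.949). Kif14, which recruits citron kinase to the midbody, rose by 0.25 (SE 0.06; edgeR adjusted p = 0.00408), with 68.0 ± 0.584 and 57.2 ± 5.17 CPM.

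**Figure D4:**
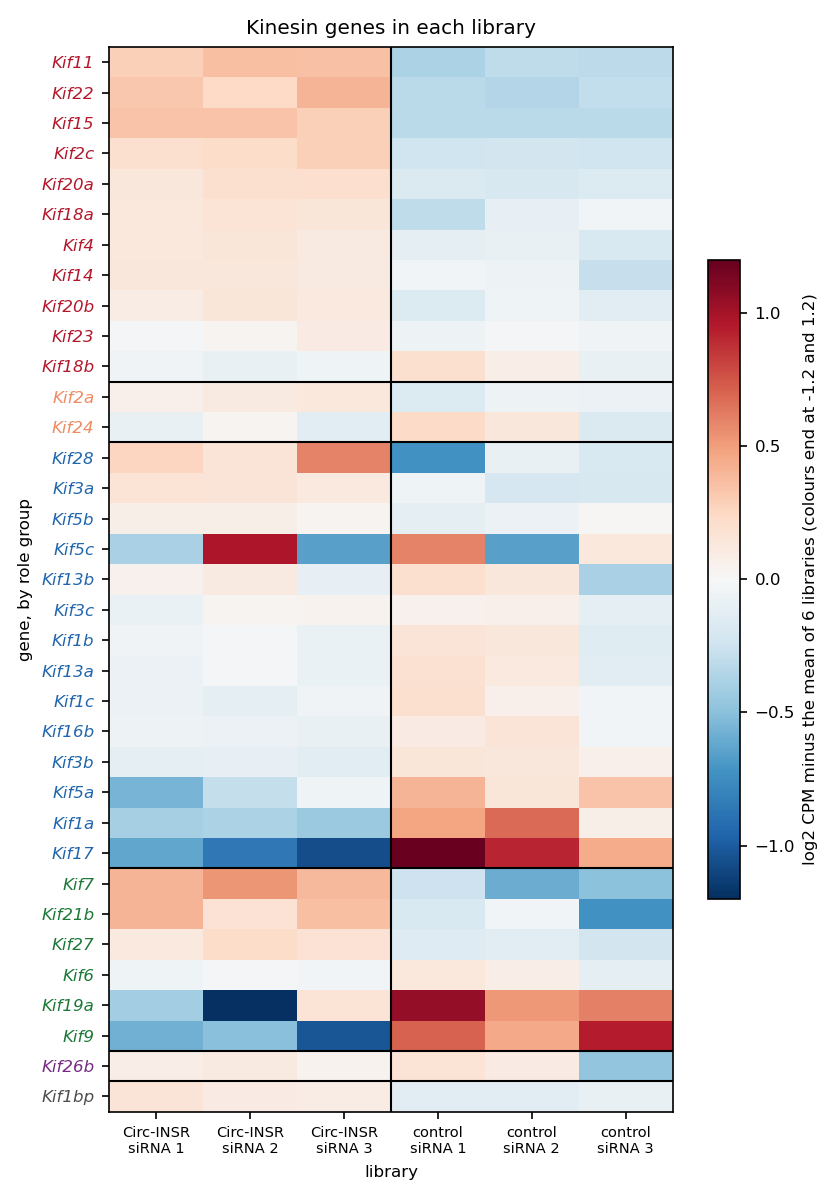
Log2 CPM of each kinesin gene in each library, minus its mean over the 6 libraries (red higher, blue lower), with Circ-INSR siRNA libraries on the left and control libraries on the right, in blocks by role. The first 9 rows of the mitotic block are red on the left in all 3 columns. Kif26b and Kif13b are lowest in control replicate 3, at 109 and 30.5 CPM.

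Genes that work with mitotic kinesins moved in the same direction. Of 17 partners and kinases 14 were higher and 0 lower (0 also at an unadjusted p under 0.05 and in DESeq2), with a median of 0.29 and a summed level of 3323 to 3430 CPM after Circ-INSR siRNA, against 2705 to 2729 CPM in control. Plk1, a mitotic kinase, rose by 0.76 (SE 0.04; edgeR adjusted p = 5.17e-08), to 156 ± 2.70 CPM against 92.5 ± 2.41 CPM in control (SD, n = 3 each), and Ccnb1, the cyclin that activates Cdk1, by 0.72 (SE 0.04; edgeR adjusted p = 1.03e-07). Aurka, the kinase that acts on Kif11 and Tpx2 at spindle poles, rose by 0.60 (SE 0.04; edgeR adjusted p = 3.07e-07). Racgap1, the partner of Kif23 in centralspindlin, rose by 0.28 (SE 0.04; edgeR adjusted p = 6.75e-05), while Kif23 itself was not called. Aurkb, Cit and Anln were not called, with log2 fold changes of 0.00, 0.03 and 0.07. The rise of G2/M genes in these data was known when the list was made, so the count is no independent evidence.

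Markers of proliferation moved with the mitotic kinesins only in part. Of 13 such genes 7 were higher and 2 lower, with a summed level of 2931 to 2978 CPM after Circ-INSR siRNA, against 2510 to 2763 CPM in control. Mybl2 and Foxm1, transcription factors that act at CHR promoters, rose by 0.66 and 0.54 (SE 0.05 and 0.06; edgeR adjusted p = 4.37e-07 and 9.73e-06), and Cdc20 rose by 0.57 (SE 0.04; edgeR adjusted p = 4.31e-07). The general markers Mki67, Top2a and Pcna were at 655 ± 23.9 and 641 ± 129.5 CPM, 549 ± 6.51 and 522 ± 17.0 CPM, and 259 ± 4.86 and 254 ± 17.5 CPM in Circ-INSR siRNA and control libraries, and were not called (edgeR adjusted p = 0.879, 0.139 and 0.699). Mki67 was lowest in control replicate 3, at 493 CPM. Lin37, a subunit of the MuvB core, fell by 0.68 (SE 0.07; edgeR adjusted p = 3.63e-06), and E2f1, an activator of S phase genes, fell by 0.27 (SE 0.05; edgeR adjusted p = 0.000442). Of the other MuvB core subunits only Lin54 and Lin9 were examined, and neither was called lower. Lin54 rose by 0.25 (SE 0.05; edgeR adjusted p = 0.00145), and Lin9 was not called (log2 fold change -0.05; edgeR adjusted p = 0.412). In bulk RNA a larger share of cells in G2 and mitosis and more mRNA per such cell cannot be told apart, and the part of either in the rise of the kinesins was not tested.

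Kinesin motors whose symbols fall outside the name rule were lower or not called. Of 5 such genes 3 were lower and 0 higher (0 also at an unadjusted p under 0.05 and in DESeq2, but 1 after removal of a length and GC trend). Cenpe, the kinetochore motor that carries chromosomes to the equator, was at 244 ± 5.59 and 233 ± 7.02 CPM (SD, n = 3 each; edgeR adjusted p = 0.215). Kifc1, a minus-end-directed motor that focuses spindle poles, fell by 0.27 (SE 0.04; edgeR adjusted p = 0.000111) and its paralog Kifc5b by 0.59 (SE 0.04; edgeR adjusted p = 5.22e-07). Kifc1 and Kifc5b are close copies that can exchange reads, so their separate values are uncertain. Kifc3 fell by 0.36 (SE 0.06; edgeR adjusted p = 0.000159).

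Among the 14 transport kinesins 3 were higher, 6 lower and 5 not called, with a median log2 fold change of -0.11. These are 21.4% higher and 42.9% lower, against 28.5% in each direction among all genes tested. Kif5b had 438, 439 and 429 CPM after Circ-INSR siRNA, against 384, 398 and 423 CPM in control (chromosome 18; log2 fold change 0.12, SE 0.04; edgeR adjusted p = 0.0409). The nearest libraries of both groups were 429 and 423 CPM, and the call was lost under total-count scaling (edgeR adjusted p = 0.238), after removal of a length and GC trend (0.05, edgeR adjusted p = 0.306) and when any library but control replicate 3 was left out (edgeR adjusted p from 0.0736 to 0.132). The neuronal kinesin-1 genes were far lower. Kif5b made up 99.5 ± 0.087% and 99.3 ± 0.112% of the summed level per kb of Kif5a, Kif5b and Kif5c. Kif5a was at 1.19, 1.43 and 1.68 CPM, against 2.31, 1.93 and 2.21 CPM in control (log2 fold change -0.58, SE 0.16; edgeR adjusted p = 0.00792), and its groups did not overlap. Kif5c, at 0.391 ± 0.255 and 0.378 ± 0.154 CPM, did not pass the test (edgeR adjusted p = 0.906), and 14 to 52 counts per library leave its level imprecise. Of the light chains that link kinesin-1 to cargo, Klc1, Klc3 and Klc4 fell by 0.13, 0.34 and 0.21 (SE 0.04, 0.08 and 0.05; edgeR adjusted p = 0.0263, 0.00424 and 0.00282). After removal of a length and GC trend the list of 5 had 1 lower and 1 higher gene, and it had 2 lower genes in each fit that left out a library other than control replicate 3.

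The subunits of kinesin-2, the motor of anterograde transport in cilia, moved in opposite directions. Kif3a rose by 0.29 (SE 0.05; edgeR adjusted p = 0.000497), at 45.0, 44.8 and 43.6 CPM after Circ-INSR siRNA, against 38.8, 35.1 and 35.2 CPM in control. Kif3b, which pairs with Kif3a, had 82.2, 83.5 and 81.4 CPM after Circ-INSR siRNA, against 99.0, 97.8 and 93.2 CPM in control (log2 fold change -0.23, SE 0.04; edgeR adjusted p = 0.000699). Per kb the ratio of Kif3a to Kif3b was 0.860, 0.844 and 0.842 after Circ-INSR siRNA, against 0.616, 0.563 and 0.594 in control, a pair chosen after its values were seen. Kif3c, the alternative partner of Kif3a, was level at 37.1 ± 1.81 and 37.3 ± 2.43 CPM (SD, n = 3 each; edgeR adjusted p = 0.951), although 35.3% of its exons overlap the antisense gene 1110002L01Rik. Kifap3, the accessory subunit of the trimer, was at 104 ± 3.48 and 102 ± 5.34 CPM (edgeR adjusted p = 0.686).

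Kif17 (chr4:138250435-138301967, plus strand), the homodimeric kinesin-2 known from dendrites and cilia, showed the largest fall of the family. It had 0.847, 0.724 and 0.626 CPM after Circ-INSR siRNA, from 45 to 57 counts, against 2.98, 2.47 and 1.78 CPM in control, from 112 to 180 counts (log2 fold change -1.72, SE 0.21; edgeR adjusted p = 2.63e-05). Every treated library was under 0.5 of the lowest control. Sh2d5 shares 1.62% of the exons of Kif17 on the same strand and fell by 0.35 (edgeR adjusted p = 0.031). Kif1a, the carrier of synaptic vesicle precursors in neurons, had 4.53, 4.58 and 4.38 CPM, against 8.26, 9.56 and 6.26 CPM in control (log2 fold change -0.84, SE 0.13; edgeR adjusted p = 0.000225). Its treated libraries were close together and all lower. Of 6 neuron markers 3 were tested and 1, Elavl3, was higher, while Snap25 was near 0 and Stmn2 at 0 in every library. Their summed level, most of it Map2 at 11.05 ± 0.641 and 11.07 ± 1.16 CPM, was 13.5 to 14.03 CPM after Circ-INSR siRNA, against 12.2 to 14.6 CPM in control, and its part in the falls of Kif17 and Kif1a was not tested.

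Of the widely expressed kinesin-3 genes, Kif1c and Kif16b fell by small amounts. Kif1c, a fast carrier of vesicles and mRNA, had 246, 240.1 and 251 CPM after Circ-INSR siRNA, against 295, 269 and 252 CPM in control (log2 fold change -0.15, SE 0.06; edgeR adjusted p = 0.0414). Control replicate 3 almost touched the treated libraries. Kif16b, which moves early endosomes, had 52.6, 52.2 and 51.6 CPM, against 58.9, 61.1 and 53.6 CPM in control (log2 fold change -0.15, SE 0.05; edgeR adjusted p = 0.0297). Its groups were separate by a small margin. Both calls were lost when any library but control replicate 3 was left out (edgeR adjusted p from 0.075 to 0.15 for Kif1c and from 0.0614 to 0.13 for Kif16b). After removal of a length and GC trend Kif1c had a log2 fold change of -0.06 (edgeR adjusted p = 0.146). Kif1b, which carries mitochondria and vesicles, had 320.3, 324 and 313 CPM, against 368, 364 and 298 CPM in control. Kif13a and Kif13b, both vesicle motors, were at 109 ± 2.64 and 118 ± 12.99 CPM and at 40.5 ± 2.997 and 39.98 ± 8.22 CPM in Circ-INSR siRNA and control libraries (SD, n = 3 each). These 3 genes were not called with all libraries (edgeR adjusted p = 0.223, 0.173 and 0.926). Without control replicate 3 their log2 fold changes were -0.19, -0.20 and -0.14 (edgeR adjusted p = 7.07e-05, 0.000257 and 0.0451), and after removal of a length and GC trend Kif1b had -0.13 with all libraries (edgeR adjusted p = 0.00156), while Kif13a and Kif13b were not called (edgeR adjusted p = 0.216 and 0.435). Kif28 was the exception of this subfamily, with 0.951, 0.882 and 1.196 CPM against 0.479, 0.745 and 0.701 CPM in control (log2 fold change 0.65, SE 0.23; edgeR adjusted p = 0.0294). The call was lost in DESeq2 (DESeq2 adjusted p = 0.0655) and without control replicate 1 or Circ-INSR siRNA replicate 3 (edgeR adjusted p = 0.0979 and 0.118). It rests on 29 to 86 counts per library, and 4.36% of its exonic bases are shared with Ahctf1 on the same strand, an abundant gene at 251 and 219 CPM.

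Cargo adaptors, which tie transport kinesins to their loads, moved in either direction: of 16 tested, 4 were higher and 5 lower, with a median of -0.08 (8 lower after removal of a length and GC trend). The largest change was the rise of Mapk8ip1 (JIP1), a scaffold that links kinesin-1 to cargo, at 17.8 ± 1.21 CPM against 7.403 ± 0.332 CPM in control (SD, n = 3 each; log2 fold change 1.26, SE 0.07; edgeR adjusted p = 6.99e-08). The lysosomal GTPase genes Arl8a and Arl8b moved apart, with Arl8b higher by 0.54 (SE 0.05; edgeR adjusted p = 2.14e-06) and Arl8a lower (-0.38, SE 0.04; edgeR adjusted p = 1.2e-05). Plekhm2 (SKIP), which joins Arl8 to kinesin-1, fell by 0.51 (SE 0.05; edgeR adjusted p = 6.15e-06). Of the mitochondrial adaptors Trak1 fell by 0.37 (SE 0.07; edgeR adjusted p = 0.000795) and Rhot2 rose by 0.32 (SE 0.05; edgeR adjusted p = 0.000219). For dynein and dynactin, the machinery of transport in the other direction, 8 of 25 genes were higher and 10 lower, with a median of -0.05. Among all genes tested 28.5% were called in each direction, and without control replicate 3 the list had 9 higher and 12 lower genes. Dync1h1, the heavy chain, was not called, at 761 ± 45.2 and 984 ± 235 CPM (log2 fold change -0.37, SE 0.20; edgeR adjusted p = 0.178). Without control replicate 3 its log2 fold change was -0.55. Dync1li2, a light intermediate chain, rose by 0.54 (SE 0.04; edgeR adjusted p = 4.81e-07), as did the dynactin subunits Actr1a and Actr1b, by 0.21 and 0.22 (SE 0.04 each; edgeR adjusted p = 0.000725 and 0.000666). Nde1, Dynlt3 and Dctn4 fell by 0.43, 0.45 and 0.33 (SE 0.05, 0.06 and 0.05; edgeR adjusted p = 1.35e-05, 3.4e-05 and 0.000141).

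Kif7 (chr7:79698098-79715720, minus strand), the kinesin that orders the tip of the primary cilium and regulates Gli factors there, showed the largest rise of all 35 genes. It had 17.2, 18.7 and 17.0 CPM after Circ-INSR siRNA, against 10.9, 8.54 and 9.22 CPM in control (log2 fold change 0.88, SE 0.09; edgeR adjusted p = 5.03e-06). All treated libraries were well above the highest control. The antisense gene 9330171B17Rik covers 19.1% of the exons of Kif7 but was at 0.106 and 0.0798 CPM. Kif27, the closest relative of Kif7, rose by 0.34 (SE 0.08; edgeR adjusted p = 0.00372), with 6.39 ± 0.219 and 5.04 ± 0.161 CPM (SD, n = 3 each). Of the other genes of Hedgehog signalling 6 of 9 tested were higher, against 28.5% of all genes tested. Among the 6 were Gas1, a co-receptor, higher by 0.66 (SE 0.05; edgeR adjusted p = 6.27e-07), and Sufu, the inhibitor of Gli factors, higher by 0.52 (SE 0.06; edgeR adjusted p = 8.13e-06). Smo, the signal transducer of the pathway, rose by 0.24 (SE 0.06; edgeR adjusted p = 0.00369). Gli1, a target gene of the pathway, was at 0.810 ± 0.111 and 0.949 ± 0.188 CPM and was not called (edgeR adjusted p = 0.387). Ptch1, another gene of the list, rose by 0.39 (SE 0.1; edgeR adjusted p = 0.00554), at 16.7 ± 0.266 and 12.7 ± 2.12 CPM. Gli1 is a single gene at a low level, and a response of the targets of the pathway was not tested.

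Genes of the cargo trains that kinesin-2 pulls in cilia, and of their return motor dynein-2, were lower or not called. Of 22 tested, 8 were lower and 0 higher (0 also at an unadjusted p under 0.05 and in DESeq2), with a median of -0.05. The 8 are 36.4% of the list, and among all genes tested 28.5% were called lower and 28.5% higher. Wdr35 fell to 153 ± 3.97 CPM, against 318.5 ± 12.99 CPM in control (SD, n = 3 each; log2 fold change -1.06, SE 0.05; edgeR adjusted p = 8.3e-09), and Ift27 to 22.8 ± 0.791 CPM, against 42.7 ± 1.24 CPM (log2 fold change -0.90, SE 0.05; edgeR adjusted p = 4.9e-08). Dync2li1 fell by 0.50 (SE 0.07; edgeR adjusted p = 6.25e-05). Without control replicate 3 the list had 1 higher gene, and after removal of a length and GC trend it had 2.

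Kif9, a kinesin of motile cilia and flagella, had 0.550, 0.579 and 0.404 CPM after Circ-INSR siRNA, against 1.34, 1.13 and 1.58 CPM in control (log2 fold change -1.40, SE 0.22; edgeR adjusted p = 0.000184). Its highest treated library was about 0.5 of its lowest control. The values rest on 29 to 44 counts against 71 to 99 counts. Kif19a, which sets the length of cilia by shortening their microtubules, had 0.149, 0.0526 and 0.223 CPM, against 0.413, 0.285 and 0.303 CPM in control (log2 fold change -1.24, SE 0.45; edgeR adjusted p = 0.0322). These are 4 to 16 counts against 18 to 25 counts, it passed the minimum of 10 counts in 2 treated and 3 control libraries, and the call was lost in DESeq2 (DESeq2 adjusted p = 0.0761) and without control replicate 1 or 2 or Circ-INSR siRNA replicate 1 or 2 (edgeR adjusted p from 0.0532 to 0.119). Kif6 was not called, at 9.24 ± 0.137 and 9.71 ± 0.821 CPM (SD, n = 3 each; edgeR adjusted p = 0.456). Markers of multiciliated cells summed to 1.34 to 1.77 CPM after Circ-INSR siRNA, against 1.24 to 1.82 CPM in control, and Foxj1, their master regulator, was at 0.768 ± 0.197 and 0.695 ± 0.191 CPM. Of these markers Dnah5 was higher (log2 fold change 1.515, SE 0.398; edgeR adjusted p = 0.00646) and Mcidas lower (-1.889, SE 0.692; edgeR adjusted p = 0.035). Both were under 0.5 CPM in every library, and in DESeq2 the list had 1 higher and 0 lower genes.

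Among the remaining genes, Kif21b, which slows microtubule growth in neurons and lymphocytes, had 1.89, 1.61 and 1.82 CPM after Circ-INSR siRNA, against 1.26, 1.40 and 0.860 CPM in control (log2 fold change 0.60, SE 0.19; edgeR adjusted p = 0.0162). Its groups did not overlap, and the call was lost without Circ-INSR siRNA replicate 1 (edgeR adjusted p = 0.056). Kif26b, a kinesin of kidney development that lacks motor activity, was at 160, 163 and 156 CPM, against 170, 162 and 109 CPM in control (edgeR adjusted p = 0.589), and the groups overlapped. Its log2 fold change was 0.12 with all libraries and -0.05 without control replicate 3. Kif1bp matches the naming rule but encodes no motor. Its product binds several kinesins, Kif15 and Kif18a among them, and keeps them off microtubules. It rose by 0.23 (SE 0.05; edgeR adjusted p = 0.00173), with 28.5 ± 0.614 and 24.3 ± 0.337 CPM (SD, n = 3 each), and 10.1% of its exons overlap an antisense gene.

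**Figure D5:**
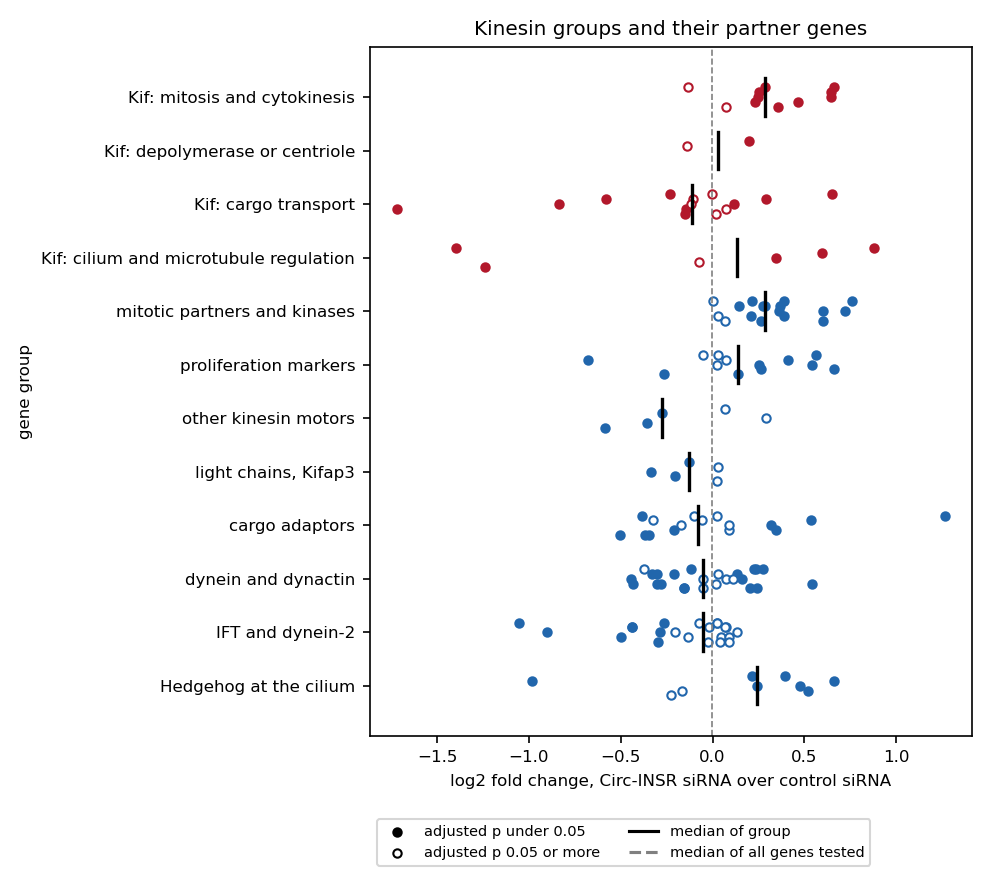
Log2 fold change, Circ-INSR siRNA over control siRNA, of the genes in 4 groups of kinesins (red) and 8 lists of partner genes (blue), with the median of each (black bars) and of all genes tested (dashed line, -0.005). Filled points have an edgeR adjusted p under 0.05. The mitotic kinesins and their partners share a median of 0.29, and transport kinesins, adaptors and dynein genes lie on both sides of the dashed line.

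Of the 10 mitotic genes with a promoter window, Kif11, Kif22, Kif15, Kif2c and Kif14 hold a CHR word before the start, 103 bases before it in Kif2c and 228 in Kif14, and all rose. Kif4 and Kif20b hold it after the start and rose too. Kif23 and Kif18b also hold it after the start and were not called, and Kif18a rose without a word of either kind in its window. These genes were chosen by name, and no test was made. In Kif2c, Kif14 and Kif4 the whole window lies inside the gene as placed by GENCODE, so the RefSeq start is not the outermost annotated start.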

How the data were processed

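Poly(A)-selected, directional RNA libraries of HL-1 cells were sequenced, per the labels' protocols. The authors deposited raw counts per Ensembl gene, 1 file per library. The submitters' processing notes name mm10, STAR 2.5.0c, featureCounts 1.6.4, StringTie 1.3.5 and other tools without their roles. Neither the annotation release nor the strand setting is given in the sources used here. In each file genes with a count of 2 (1434 to 1544) outnumbered genes with a count of 1 (1033 to 1157), as when both mates of a pair are counted, so halved counts were tried too.

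Names, positions and exonic lengths came from GENCODE M21 on the same build (36308 of 38087 IDs matched). The comparison used edgeR 4.0.16 (R 4.3.3) with filterByExpr (minimum count 10, total 15; TMM scaling, robust quasi-likelihood F-test, Benjamini-Hochberg adjustment over 16666 genes, threshold 0.05). Standard errors were taken as |log2 fold change|/√F. Alternatives were other scalings and filters, DESeq2 1.42.0, limma-voom (limma 3.58.1), the replicate number as a block, each library left out, and a trend on length and GC content removed. The steps were tested on simulated data. Groups of kinesins and partner lists were drawn up by role, and the genes given in every library were the 8 largest rises and falls among calls and the 6 highest per kb. From each partner list up to 3 genes per direction with the smallest adjusted p were named. Library values of Kif3a, Kif1b and Kif26b were added after values were seen. So were Racgap1, Aurkb, Cit, Anln, Mki67, Top2a, Pcna, Lin54, Lin9, Cenpe, Kifap3, Dync1h1, Gli1 and Ptch1. Members and lists were chosen with earlier results of these data known. Counting error limits genes with few counts. 3 counts correspond to 0.0395 to 0.0496 CPM. The result for 1 gene of the Hedgehog list is not reported here.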

Additional observations from a re-analysis of the deposited data

How the results depend on the processing

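The counts of higher kinesins (15 to 17 over all alternatives, 17 in the report) and of higher mitotic kinesins (9 in every alternative) held. Lower kinesins numbered 8, and between 5 and 13 when a library was left out, with 13 without control replicate 3. Lower mitotic kinesins numbered 0, but 1 with total-count scaling, 1 with upper-quartile scaling and between 0 and 1 with a library left out. This gene is Kif18b. Of 25 called genes 19 kept call and direction in all alternatives that tested them. The other 6 (Kif5b, Kif1c, Kif16b, Kif19a, Kif21b and Kif28) lost their call in at least 1. Directions turned only in genes that were not called: Kif13b (-0.023 with total counts, between -0.137 and 0.124 with a library left out), Kif26b (between -0.051 and 0.236 with a library left out, the lowest without control replicate 3), Kif3c (0.003 without a filter, 0.002 in DESeq2, 0.04 after removal of a length and GC trend, between -0.053 and 0.038 with a library left out) and Kif5c (-0.004 with the replicate block, -0.023 in limma-voom, between -0.616 and 0.388 with a library left out). The cause was not tested. With the replicate number as a block the counts were 17 and 8. Deviations of libraries with the same number correlated at 0.024, 0.074 and 0.036, each higher than with other numbers, which is too low to treat the numbers as pairs. For Kif19a, Kif5c and Kif28, depth limits what can be seen.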
